A study of Vitis vinifera with 24 samples.

Results

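The transcripts described here come from 5 grapevine genes of the green, light-using machinery of the berry, out of 26740 genes listed in at least 1 season. Photosystem I subunit F (PSAF, VIT_00s0125g00280) and photosystem I subunit D-2 (PSAD-2, VIT_05s0020g03180) belong to photosystem I, photosystem II subunit O-2 (PSBO2, VIT_00s0207g00210) and PSBQ-2 (VIT_00s0904g00010) belong to photosystem II, and PORA (VIT_19s0014g03160) is annotated as a protochlorophyllide reductase. They were taken from the gene tables of the study, which listed them for their difference between nitrogen supply and control in 2013, so the nitrogen contrast of 2013 is given below as a description without a test. All 5 were listed in both seasons and passed the filter on low values. The names and functions are those of the study's tables, and the roles given below are known mainly from Arabidopsis and other green plants.

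Whole berries of Vitis vinifera cv. Sauvignon blanc were collected from control vines and from vines, all in randomized plots near Bordeaux, that received 100 U/ha (kg of nitrogen per hectare) as ammonium nitrate through the soil (soil N100), split between bud break and flowering, while the control vines received none. The berries were sampled 28 days (v+28) and 35 days (v+35) after mid-veraison, a time set by the softening of the berries, in 2013 and in 2014. Each of the 4 groups of a season holds 3 libraries, described as biological replicates, which gives 24 libraries of poly(A) RNA. The clone and the rootstock were changed together with the season, and each season was deposited as a table of its own, so the levels of 2013 and 2014 stand side by side below and were not tested against each other.

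In chloroplasts, photosystem II takes electrons from water and passes them along a transport chain to photosystem I, which uses light again to reduce ferredoxin. Both photosystems are built around chlorophyll, whose synthesis in flowering plants passes through a light-dependent step, the reduction of protochlorophyllide to chlorophyllide. A grape berry is green and photosynthetic when young, and its chlorophyll declines from veraison onwards.

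The reads counted in genes ranged from 28.3 to 59.3 M per library in 2013 and from 44.1 to 72.3 M in 2014. Levels are in RPKM, reads per kilobase of gene, divided by the library size in M reads, so that levels of different genes can be compared. The reads behind a value of the 5 genes ranged from 249 (PSBQ-2, 2013) to 12832 (PSBO2, 2014). In all 24 libraries PSBO2 was the most abundant of the 5 transcripts, with 68.1 to 153 RPKM in 2013 and 90.6 to 149 RPKM in 2014. Whole berries also contain seeds. All 11 seed genes of the study's tables (oleosins and late embryogenesis abundant proteins) were above 0 in every library, and their summed level ranged from 219 to 656 RPKM. Fewer green cells and less transcript per cell cannot be told apart in such samples.

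From (v+28) to (v+35) the protochlorophyllide reductase transcript fell in both seasons, to about 0.5 of its earlier level, whereas none of the 4 photosystem transcripts was called over both treatments. Calls required an adjusted p no higher than 0.05 together with a log2 change no smaller than 0.6 in either direction. In 2013 PORA was 1 of 5 genes called, against a background of 4.56% of all genes called lower. In 2014 it was again 1 of 5, against 2.28% of all genes called lower. The p values measure the spread between the 3 replicates of a group.

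PORA catalyses the light-dependent reduction of protochlorophyllide. In control berries of 2013 it was at 25.4, 20.4 and 26.8 RPKM at (v+28), then at 14.2, 11.2 and 10.8 RPKM at (v+35). In soil N100 berries of 2013 it was at 40.7, 35.6 and 43.2 RPKM at (v+28), then at 21.9, 14.4 and 27.1 RPKM at (v+35). Within each treatment the later libraries were all below the earlier ones, while over both treatments the ranges overlapped, because soil N100 libraries of the later stage reached the earlier control level. Separation over both treatments was found for 12.5% of all genes in 2013. Libraries without overlap in this direction were found for 31.7% of all genes in control berries and for 24.8% in soil N100 berries of 2013.

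In 2014 PORA was at 24.1, 24.6 and 18.1 RPKM in control berries at (v+28), then at 12.1, 12.5 and 9.13 RPKM at (v+35). In soil N100 berries of 2014 it was at 22.8, 22.1 and 25.2 RPKM at (v+28), then at 11.3, 13.1 and 14.8 RPKM at (v+35). All 6 libraries of the later stage lay below all 6 of the earlier stage, which holds for 6.13% of all genes. The log2 fold change was -0.96 ± 0.14 (SE, 6 libraries a stage) in 2013 and -0.89 ± 0.10 in 2014, with adjusted p of 0.000244 and 0.000911 in limma. The 95% intervals ran from -1.25 to -0.66 and from -1.12 to -0.66. The difference between the seasons was 0.07 ± 0.17 (adjusted p = 0.798), which did not pass the test.

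The decline of PORA was also seen within each treatment. In 2014 the log2 fold change was -0.96 in control berries (adjusted p = 0.0114) and -0.82 in soil N100 berries (adjusted p = 0.0308, limma). In these single treatments 1.58% and 0.646% of all genes were called lower. The call in soil N100 berries was lost when any 1 of its own 6 libraries was left out (adjusted p between 0.0685 and 0.117), and the call in control berries was lost without replicate 1 of (v+28) (adjusted p = 0.0582). In 2013 the fold changes of -0.97 and -0.94 are given without a test, since these groups enter the contrast by which the genes were chosen.

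**Figure D1:**
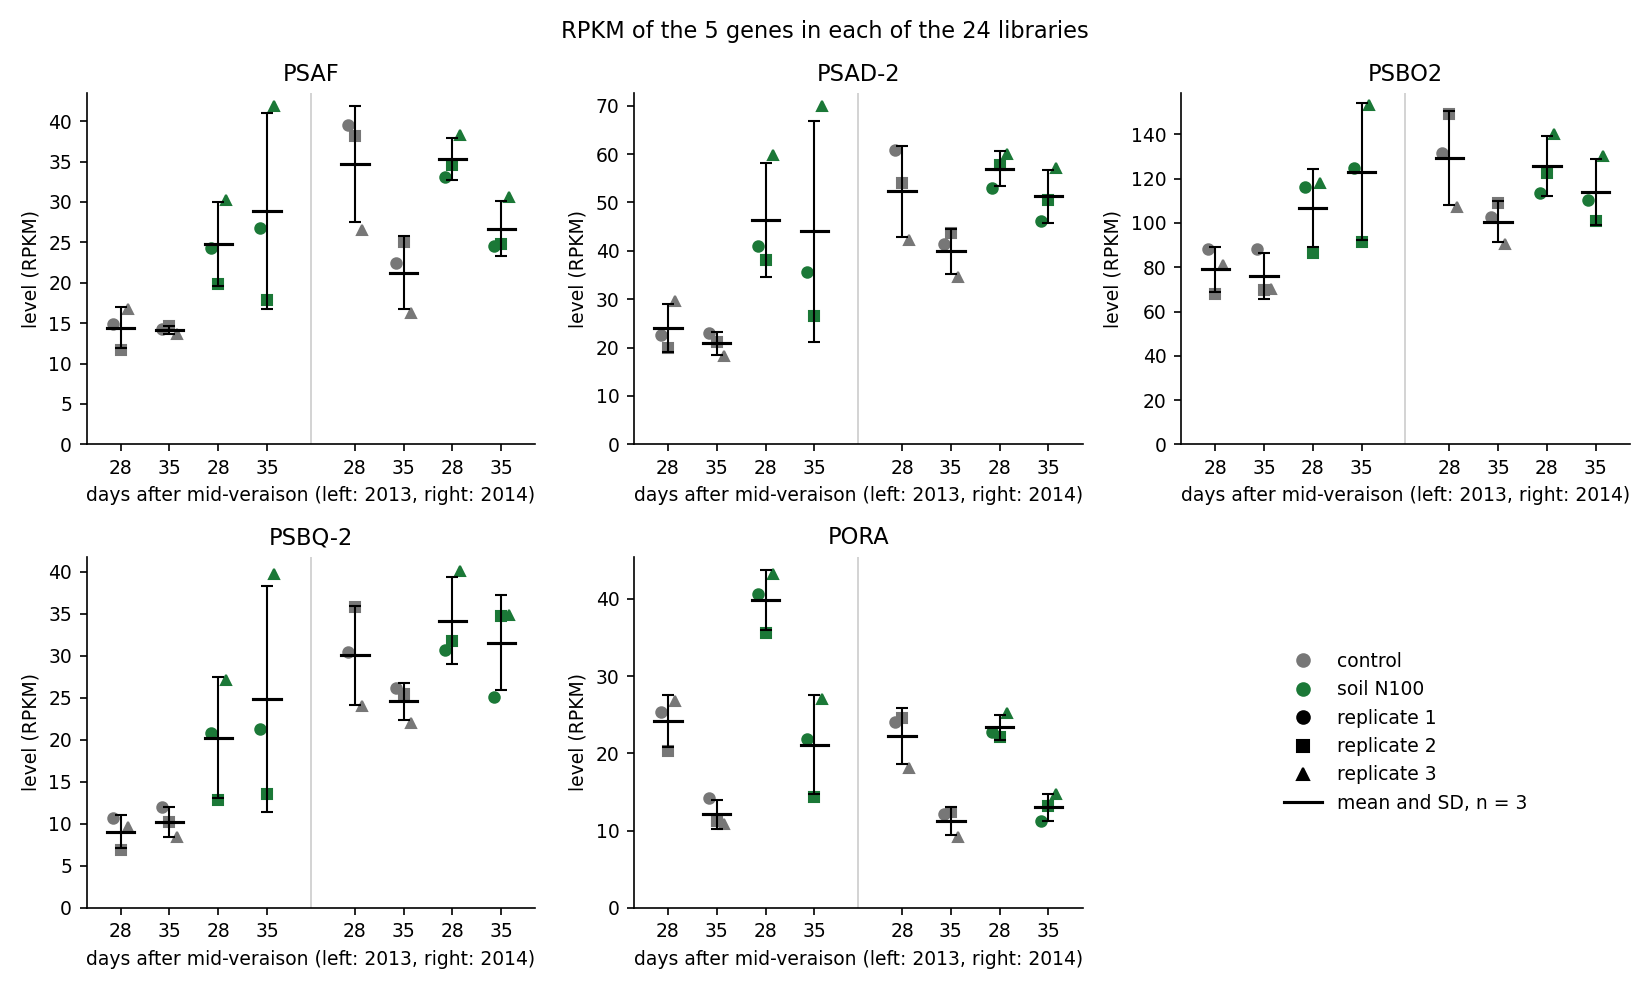
Level in RPKM of each of the 5 genes in each library (points, shape by replicate number, grey control and green soil N100), with the mean and SD of the 3 libraries of a group in black, by days after mid-veraison and season. PORA lies lower at 35 than at 28 days in all 4 pairs of groups, and the soil N100 libraries of 2013 lie above their controls at the same stage except 1 library of PSBO2 at (v+28).

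Of the 2 photosystem I genes, PSAF differed between the seasons in its change with ripening and PSAD-2 was not shown to. PSAF is the subunit at which plastocyanin docks to deliver electrons. The control libraries of 2013 had 14.9, 11.6 and 16.7 RPKM at (v+28), then 14.3, 14.6 and 13.6 RPKM at (v+35). The soil N100 libraries of 2013 had PSAF at 24.3, 19.9 and 30.2 RPKM and then at 26.7, 17.9 and 41.9 RPKM. The stages overlapped in both treatments, and the log2 fold change was 0.07 ± 0.18 (adjusted p = 0.776, limma). In 2014 the control libraries were at 39.5, 38.1 and 26.5 RPKM at (v+28), then at 22.5, 25.03 and 16.2 RPKM at (v+35). The soil N100 libraries of 2014 were at 33.1, 34.5 and 38.3 RPKM and then at 24.6, 24.8 and 30.6 RPKM. Within each treatment the later libraries of 2014 were all lower, without overlap, as for 14.4% of all genes in control and 17.1% in soil N100 berries.

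Over both treatments PSAF differed between the stages of 2014 by a log2 fold change of -0.55 ± 0.13 (95% interval -0.82 to -0.27, adjusted p = 0.0129, limma), which passed the p threshold but not the fold threshold. In control berries of 2014 alone it was called lower (-0.70, adjusted p = 0.0493), a call that was lost under 13 of 17 alternative settings (adjusted p of 0.0124 to 0.198 when 1 library was left out). The change of PSAF from (v+28) to (v+35) was more negative in 2014 than in 2013 by -0.62 ± 0.22 (adjusted p = 0.0335, separate limma fits), against a background of 4.55% of genes called in that direction. This call was also lost under 13 of 34 alternative settings, namely the fit without a filter on low values (adjusted p = 0.0562) and 12 of the 24 fits that left out 1 library (adjusted p up to 0.0766).

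PSAD-2, the subunit to which ferredoxin binds, was more abundant than PSAF in every library. Without added nitrogen it was at 22.6, 20.002 and 29.6 RPKM at (v+28), then at 23.1, 21.2 and 18.4 RPKM at (v+35). With soil N100 it was at 40.9, 38.2 and 59.8 RPKM and then at 35.7, 26.6 and 69.9 RPKM. The highest and the lowest of these later soil N100 libraries enclosed all 3 earlier ones. In 2014 the control libraries were at 60.8, 53.9 and 42.2 RPKM and then at 41.4, 43.7 and 34.6 RPKM. The soil N100 libraries of 2014 were at 53.0, 57.7 and 60.1 RPKM and then at 46.2, 50.6 and 57.1 RPKM. The stages overlapped in both treatments. The log2 fold change was -0.17 ± 0.20 in 2013 (adjusted p = 0.517) and -0.26 ± 0.10 in 2014 (adjusted p = 0.0613, limma), and its difference between the seasons was -0.09 ± 0.23 (adjusted p = 0.788).

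The photosystem II genes encode proteins on the lumen side of the complex. PSBO2 encodes a form of the protein that stabilises the manganese cluster where water is oxidised. Without added nitrogen it was at 88.1, 68.1 and 81.1 RPKM at (v+28), then at 88.1, 69.9 and 70.1 RPKM at (v+35). With soil N100 it was at 116, 86.3 and 118 RPKM and then at 125, 91.4 and 153 RPKM. The stages overlapped in both treatments. In 2014 the control libraries were at 132, 149 and 107 RPKM and then at 103, 109 and 90.6 RPKM. The soil N100 libraries of 2014 were at 114, 123 and 140 RPKM and then at 110, 101 and 130 RPKM. The stages overlapped again, with log2 fold changes of 0.07 ± 0.13 in 2013 (adjusted p = 0.712) and -0.25 ± 0.10 in 2014 (adjusted p = 0.0770, limma), and a difference between the seasons of -0.31 ± 0.16 (adjusted p = 0.143).

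PSBQ-2, which encodes another protein of the oxygen-evolving complex, was the least abundant of the 4 photosystem transcripts in every library of 2013. In control berries of 2013 it was at 10.7, 6.89 and 9.62 RPKM at (v+28), then at 12.0, 10.2 and 8.45 RPKM at (v+35). With soil N100 it was at 20.8, 12.9 and 27.2 RPKM and then at 21.3, 13.6 and 39.7 RPKM. The stages overlapped in both treatments. In 2014 the control libraries were at 30.4, 35.8 and 24.01 RPKM and then at 26.2, 25.5 and 22.04 RPKM. The soil N100 libraries of 2014 were at 30.7, 31.7 and 40.1 RPKM and then at 25.1, 34.7 and 34.9 RPKM. The stages overlapped here too. The log2 fold change was 0.19 ± 0.24 in 2013 (95% interval -0.33 to 0.72, adjusted p = 0.541) and -0.20 ± 0.12 in 2014 (-0.46 to 0.07, adjusted p = 0.232, limma), and its difference between the seasons was -0.39 ± 0.27 (adjusted p = 0.283). An adjusted p above the threshold does not show that PSAD-2, PSBO2 or PSBQ-2 kept its level.

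**Figure D2:**
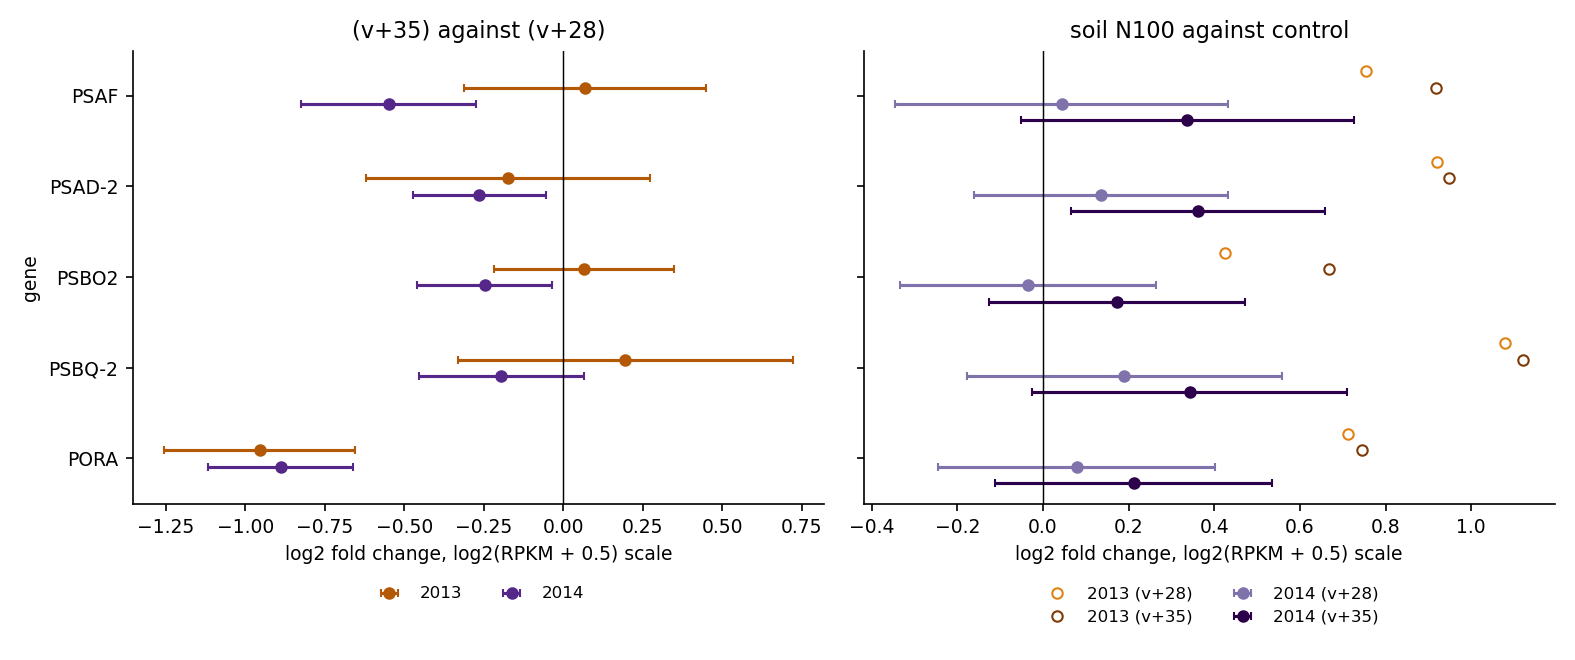
Log2 fold changes of the 5 genes on the log2(RPKM + 0.5) scale, at left from (v+28) to (v+35) over both treatments and at right for soil N100 against control, with 95% intervals of the limma fit; open points of 2013 at right have no interval because that contrast chose the genes. PORA lies at -0.96 and -0.89 at left in the 2 seasons, and the nitrogen values of 2014 lie between -0.03 and 0.36.

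Since RPKM values can be compared between genes, PORA was also set against the mean of the 4 photosystem genes in the same library. At (v+28) of 2013 the log2 level of PORA minus that mean lay between -0.18 and 0.22 (6 libraries, median 0.09), and at (v+35) it lay between -1.25 and -0.76 (median -0.89). In 2014 it lay between -1.24 and -1.11 (median -1.20) at (v+28) and between -1.86 and -1.67 (median -1.77) at (v+35). The stages did not overlap in either season, and the 2014 libraries were lower than the 2013 libraries of the same stage. These ratios describe the chosen genes and were not tested.

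Of the 28 other genes of photosynthesis and chlorophyll synthesis in the study's tables, 27 passed the filter on low values. None was called from (v+28) to (v+35) in 2013 by limma or by limma-voom on the recovered reads, and 5 of the 27 had an unadjusted p of at most 0.05, against 51.3% of all genes. The median log2 fold change was -0.13, against -0.08 for all genes. In 2014, 2 of the 27 were called lower (3 by limma-voom), against 2.28% of all genes, and none was called higher. An unadjusted p of at most 0.05 was found for 20 of the 27, against 41.9% of all genes, and the median was -0.27, against -0.02 for all genes. The 2 were a photosystem II subunit (VIT_18s0001g11710, -1.08 ± 0.14, adjusted p = 0.00134) and Rubisco activase (RCA, VIT_13s0019g02050, -0.77 ± 0.11, adjusted p = 0.00177), which keeps the carbon-fixing enzyme Rubisco active. Their mean levels over the 24 libraries were low, at 3.21 and 1.24 RPKM in that order. Both genes also differed between the seasons (-0.82, adjusted p = 0.0133 and -0.86, adjusted p = 0.000357, limma). Of the 27, 4 were called more negative in 2014, against 4.55% of all genes.

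The most abundant of these genes by role had smaller log2 fold changes than PORA, a difference that was not tested. The light-harvesting gene VIT_12s0057g00630 (mean of 112 RPKM over the 24 libraries), annotated as chlorophyll binding, had a log2 fold change of -0.54 in 2013 (adjusted p = 0.0477) and -0.27 in 2014 (adjusted p = 0.0393, limma), both short of the fold threshold. PSBP-1 (VIT_12s0028g01080), the oxygen-evolving partner of PSBO and PSBQ, had values of 0.23 and -0.25 (mean level 88.4 RPKM). The plastocyanin-like electron carrier DRT112 (VIT_18s0001g00760, mean level 62.1 RPKM) had values of -0.15 and -0.21, and photosystem I subunit L (PSAL, VIT_04s0023g00410, mean level 23.9 RPKM) -0.13 and -0.22. None of these 3 passed the p threshold in either season.

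Phosphoribulokinase (PRK, VIT_02s0109g00080, mean level 35.5 RPKM), which regenerates the acceptor of carbon dioxide, had a log2 fold change of 0.46 in 2013 and -0.46 in 2014 (adjusted p of 0.0441 and 0.0297), and the difference of -0.92 between the seasons was called (adjusted p = 0.00312, limma). The (S)-2-hydroxy-acid oxidase VIT_10s0003g03830 (mean level 40.7 RPKM), an enzyme of photorespiration, had values of -0.02 and -0.03. A second protochlorophyllide reductase gene, VIT_12s0059g00270, had a mean level of only 2.38 RPKM. Its log2 fold change was -0.19 in 2013 (adjusted p = 0.439) and 0.26 in 2014 (adjusted p = 0.0998, limma), so the decline called for PORA was not called for it. ACD1 (VIT_06s0004g00620, mean level 3.02 RPKM), the pheophorbide a oxygenase of chlorophyll breakdown, had values of -0.44 (adjusted p = 0.0206) and -0.27 (adjusted p = 0.111), short of the fold threshold.

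**Figure D3:**
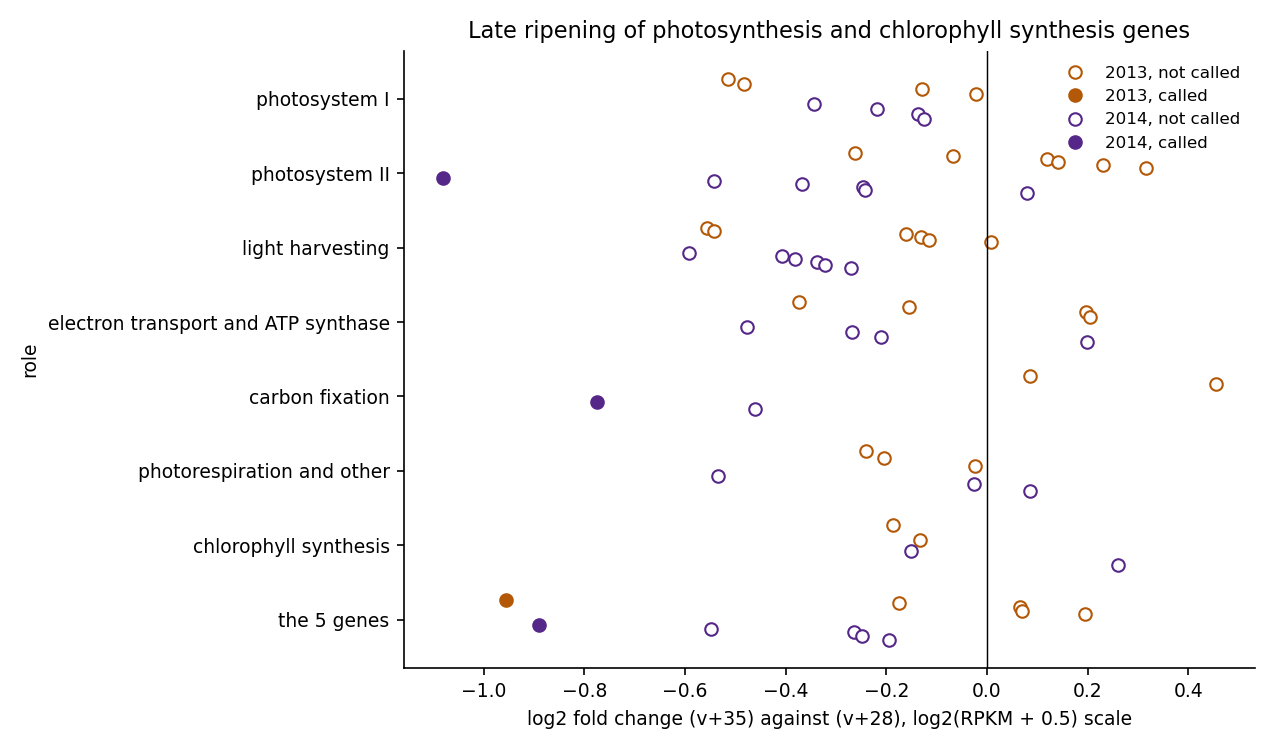
Log2 fold change from (v+28) to (v+35) over both treatments for each photosynthesis and chlorophyll synthesis gene that passed the filter, by role and season, with the 5 genes at the bottom; filled points were called. PORA (-0.96 and -0.89) is the only filled point of 2013, and in 2014 a photosystem II subunit (-1.08) and Rubisco activase (-0.77) are filled beside it.

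Of the 11 seed genes, 3 were called higher at (v+35) in 2013, against 4.14% of all genes (late embryogenesis abundant genes VIT_07s0151g00840 at 1.01, VIT_14s0030g01470 at 0.76 and VIT_02s0012g00940 at 0.61) and the median was 0.34. In 2014 none was called by limma or limma-voom, 3 of the 11 had an unadjusted p of at most 0.05, against 41.9% of all genes, and the median was -0.29. The summed level of the list in control berries ranged from 292 to 545 RPKM at (v+28) and from 503 to 656 RPKM at (v+35) in 2013, and from 324 to 512 and 219 to 437 RPKM in 2014. In soil N100 berries it ranged from 245 to 482 and 295 to 333 RPKM in 2013, and from 466 to 479 and 301 to 416 RPKM in 2014. The most abundant of them, VIT_09s0002g06070 (mean level 83.7 RPKM), had values of -0.02 and -0.29 without a call. Their part in the ripening and nitrogen results for the 5 genes was not tested. Their co-variation with the 5 genes over the libraries is given below.

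Under nitrogen supply in 2013, by which the genes were chosen, soil N100 libraries lay above the controls of the same stage for 4 of the 5 genes at (v+28), against 5.68% of all genes, and for 5 of 5 at (v+35), against 4.8%. The exception was PSBO2 at (v+28), where the soil N100 library at 86.3 RPKM lay below the control library at 88.1 RPKM. The log2 fold changes at (v+28) and (v+35) were 0.75 and 0.92 for PSAF, 0.92 and 0.95 for PSAD-2, 0.43 and 0.67 for PSBO2, 1.08 and 1.12 for PSBQ-2, and 0.71 and 0.74 for PORA. All genes had a median of -0.10 at both stages, which moved to about 0 (-0.01 and -0.002) when the libraries were scaled by median ratios.

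The 27 other photosynthesis and chlorophyll synthesis genes had positive values in 27 of 27 cases at both stages of 2013, with medians of 0.64 and 0.68. The 11 seed genes had negative values in 11 of 11 cases, with medians of -0.35 and -0.79. Nitrite reductase (NIR1, VIT_03s0063g00370), an enzyme of nitrate assimilation, had values of 0.71 and 0.52. Both lists were picked by the study on these libraries, so their directions in 2013 are no independent evidence.

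In 2014 none of the 5 genes was called under nitrogen supply, at either stage or over both. At (v+28) no gene of 17171 was called by limma (0%), and none of the 5 had an unadjusted p of at most 0.05, against 3.4% of all genes. At (v+35) 0.00582% of genes were called, and an unadjusted p of at most 0.05 was found for 1 of the 5 and for 3.8% of all genes. Over both stages 0.0408% were called, and an unadjusted p of at most 0.05 was found for 2 of the 5, PSAD-2 and PSBQ-2, and for 7.01% of all genes. By limma-voom none of the 5 was called either.

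PSBQ-2 had a log2 fold change of 0.19 at (v+28) and 0.34 at (v+35) of 2014, and PSAD-2 had 0.14 and 0.36. PSAF had 0.04 and 0.34, PORA 0.08 and 0.21, and PSBO2 -0.03 and 0.17, with adjusted p of 1.00 at (v+28) and 0.989 at (v+35) for all 5 (limma). At (v+35) PSAD-2 alone had soil N100 libraries entirely above the controls (46.2 to 57.1 against 34.6 to 43.7 RPKM), which holds for 2.7% of all genes. At (v+28) the libraries of all 5 genes overlapped, while 1.76% of all genes had soil N100 libraries entirely higher. The 95% intervals over both stages ran from -0.09 to 0.46 for PSAF, 0.04 to 0.46 for PSAD-2, -0.14 to 0.28 for PSBO2, 0.01 to 0.53 for PSBQ-2 and -0.08 to 0.37 for PORA. The difference of the nitrogen effect between the stages was positive for 5 of 5 genes (0.13 to 0.29), against 61.8% of all genes. It passed the test for none of the 5 (adjusted p = 1.00, with 0% of all genes called and 0 of the 5 at an unadjusted p of at most 0.05, against 0.909% of all genes).

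Among the 27 other photosynthesis and chlorophyll synthesis genes none was called under nitrogen in 2014 by limma or limma-voom, with medians of 0.08 at (v+28), where 1 had an unadjusted p of at most 0.05, and 0.24 at (v+35), where 6 had, against the 3.4% and 3.8% of all genes given above. All genes had medians of -0.05 and -0.01. NIR1 had values of 0.31 and 0.36 (adjusted p of 1.00 and 0.989). The seed genes had medians of 0.23 and 0.02 and no call. Whether the nitrogen effect differed between the seasons was not tested, because the 2013 effect chose the genes.

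The level of the photosystem transcripts in control berries was higher in the 2014 table than in the 2013 table. At (v+28) the control means were 34.7 ± 7.15 and 14.4 ± 2.59 RPKM (SD, n = 3) for PSAF, 52.3 ± 9.41 and 24.1 ± 4.95 RPKM for PSAD-2, 129 ± 21.2 and 79.1 ± 10.1 RPKM for PSBO2, and 30.1 ± 5.89 and 9.07 ± 1.95 RPKM for PSBQ-2 in 2014 and 2013. These ratios of 2014 over 2013 ranged from 1.64 for PSBO2 to 3.32 for PSBQ-2. PORA was at 22.3 ± 3.60 and 24.2 ± 3.38 RPKM, a ratio of 0.921. At (v+35) the control ratios of the 4 photosystem genes ranged from 1.32 for PSBO2 to 2.40 for PSBQ-2, and that of PORA was 0.929. In soil N100 berries at (v+28) the photosystem ratios ranged from 1.18 for PSBO2 to 1.69 for PSBQ-2, and that of PORA was 0.587. In soil N100 berries at (v+35) the ratio was 0.925 for PSAF and for PSBO2, 1.16 for PSAD-2, 1.27 for PSBQ-2 and 0.618 for PORA. Season, clone, rootstock and table cannot be told apart in these ratios.

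Among the 3 libraries of a group the 5 transcripts tended to vary together, though in control berries of 2013 they differed in their highest replicate. In soil N100 berries replicate 3 was the highest library in 20 of 20 combinations of gene, stage and season. Replicate 2 was the lowest in 10 of 10 combinations in soil N100 berries of 2013, and replicate 3 the lowest in 10 of 10 in control berries of 2014. In control berries of 2013 replicates 1, 2 and 3 were the highest in 6, 1 and 3 of 10 combinations. They were the lowest in 0, 6 and 4. The 5 genes share their libraries, so these combinations are not independent. The shares of all genes with such an order were not computed. At (v+35) of 2013 the mean deviation of the 5 genes from their group mean was 0.59 on the log2 scale for soil N100 replicate 3 and -0.56 for replicate 2. The 3 soil N100 libraries of that stage ranged from 17.9 to 41.9 RPKM for PSAF, and the 3 control libraries from 13.6 to 14.6 RPKM. In these controls the highest library was 1.08 times the lowest for PSAF and 1.26 to 1.42 times for the other 4 genes. In the soil N100 libraries it was 1.68 to 2.92 times the lowest over the 5 genes. Without replicate 3 of both soil N100 groups of 2013, a choice made after seeing the data, the nitrogen values of (v+35) were 0.61 for PSAF, 0.56 for PSAD-2, 0.50 for PSBO2, 0.72 for PSBQ-2 and 0.55 for PORA, and the ripening value of PORA was -1.02 (limma adjusted p = 0.000329).

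After removal of the group means, Pearson correlations between pairs of the 5 genes over the 12 libraries of a season ranged from 0.80 to 0.96 in 2013 (10 pairs, median 0.91) and from 0.72 to 0.95 in 2014 (median 0.84). In exact two-sided permutations within the groups (1296 a season) the unadjusted p ranged from 0.00154 to 0.0370 in 2013 and from 0.000772 to 0.0463 in 2014. Spearman's rho ranged from 0.78 to 0.97 and from 0.64 to 0.97, with exact permutation p of 0.00154 to 0.0239 and 0.000772 to 0.0625, above 0.05 for 3 pairs of 2014. Without the 2 libraries farthest from the median, Pearson's r ranged from 0.70 to 0.94 and from 0.56 to 0.90. In total 20 pairs were computed, and a pair shares its libraries, its library scaling and the RNA of the same berries.

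Each gene also followed the mean of the other 4, with r of 0.92 to 0.97 in 2013 and 0.80 to 0.96 in 2014. Median values for all other genes against the same means were between -0.10 and 0.01. A value as high was reached by 0.0520% of 17293 other genes for PSAF and 0.468% for PSAD-2 in 2013. In 2014 the shares ranged from 0.00583% of 17166 genes for PORA to 1.56% for PSBQ-2. Over the 12 libraries the mean log2 deviation of the 5 genes was set against the mean log2 deviation of the 11 seed genes. Pearson's r was 0.31 (2013) and 0.13 (2014), with exact permutation p of 0.282 and 0.729. With library size it was -0.34 and 0.21, with p of 0.489 and 0.637. The Spearman values were 0.24 and 0.20 (p of 0.492 and 0.590) for the seed genes. For library size they were -0.26 and 0.11 (p of 0.536 and 0.753). The r without the 2 farthest libraries was 0.41, 0.20, -0.33 and -0.08 in that order. The Pearson p adjusted over these 4 was 0.729 for each.

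**Figure D4:**
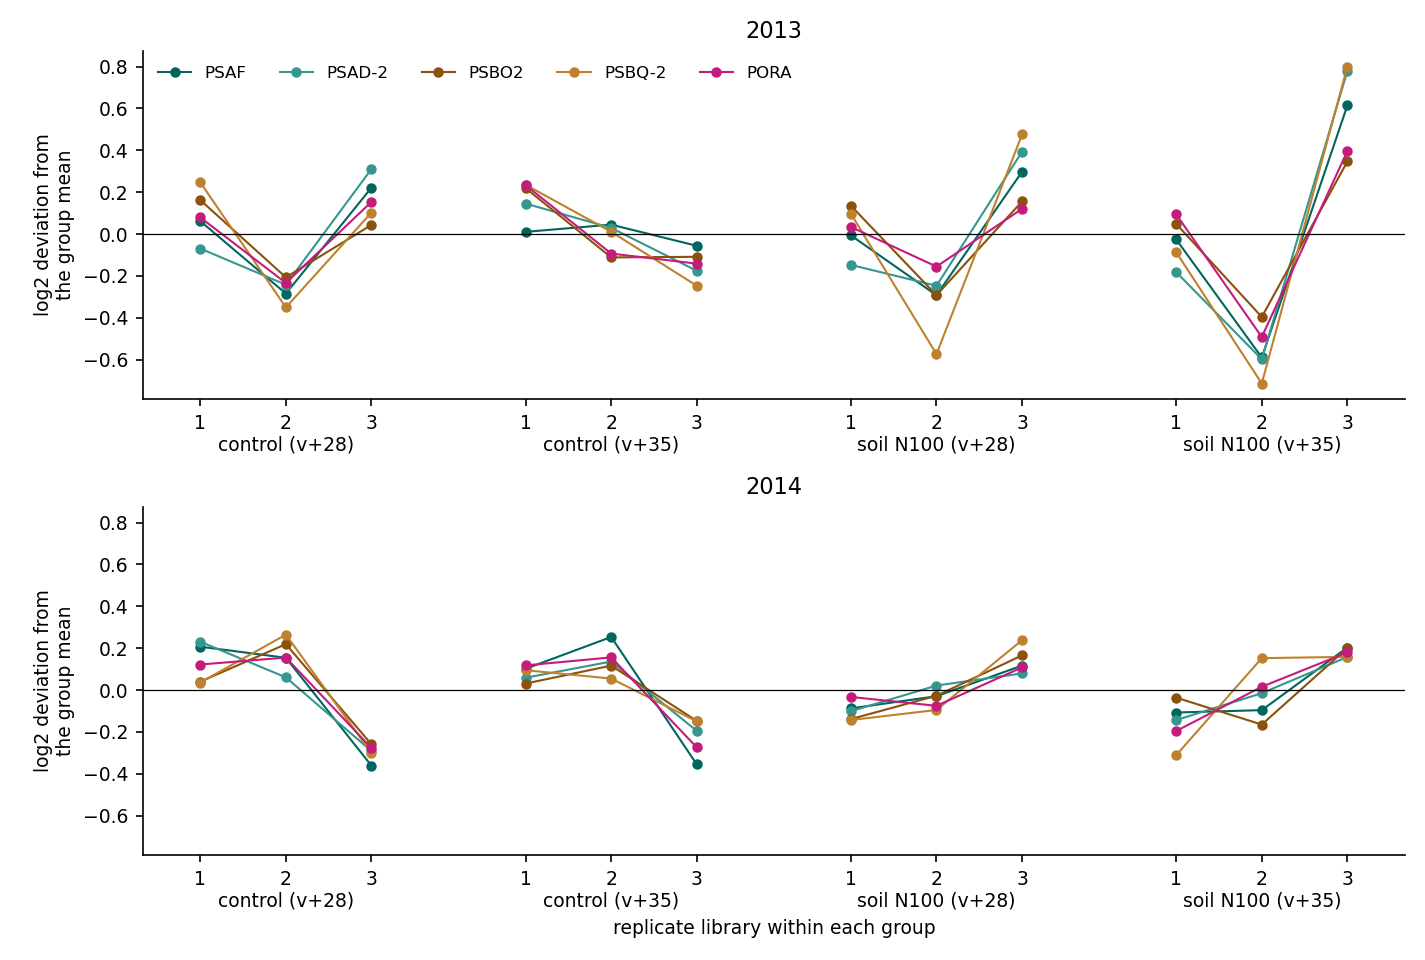
Deviation of each gene's log2(RPKM + 0.5) from its group mean in each of the 3 replicate libraries of the 4 groups, by season; the lines join the replicates of a gene and carry no order. The 5 lines mostly run together. Within their groups they are highest in soil N100 replicate 3 in both seasons. They are lowest in soil N100 replicate 2 of 2013 and in control replicate 3 of 2014. In control berries of 2013 the genes differ in which replicate is highest.

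Over the 12 libraries of each season, group differences included, the genes whose pattern was most like the mean log2 level of the 5 were ranked among 16894 genes by the lower Pearson r of the 2 seasons. The 2 highest of all genes were a gene annotated as a putative tropinone reductase (VIT_06s0004g05330, lower r = 0.97) and light harvesting complex of photosystem II 5 (VIT_18s0089g01170, lower r = 0.96). Among 564 genes with a description they were followed by photosystem I subunit O (PSAO, VIT_06s0080g00920, 0.95), LHCA2 of the photosystem I antenna (VIT_01s0010g03620, 0.95) and photosystem II reaction center W (PSBW, VIT_14s0081g00060, 0.94). The median of the lower r over all genes was -0.41, and 125 genes reached 0.8. The 564 described genes come from the study's tables of genes that differed under nitrogen in these libraries, and the tropinone reductase gene is among them. Group differences entered the ranking, so it is not independent of that choice. The last 4 genes named are among the 28 genes that the study listed beside the 5, and no p is given.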

How the data were processed

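The libraries were poly(A) RNA of whole berries. Per the labels and methods, the authors used CASAVA 1.8.2, mapped reads with TopHat2 2.0.10 and Bowtie2 2.1.0, used HTSeq 0.5.4p3 to count reads with a unique alignment, and deposited RPKM values, 1 table a season without pooling. Unique alignment can lower a gene with near-identical copies, so levels of the photosystem genes with numbered forms are uncertain in that respect. Whole reads were recovered for 99.99% (2013) and 99.98% (2014) of genes, and 0 deposited columns were left unused. The 5 genes and the lists were chosen with earlier results of these data known.

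In R 4.3.3, limma 3.58.1 was fitted by season to log2(RPKM + 0.5) of the 17298 and 17171 genes whose mean over the season reached 0.5 RPKM, with 1 mean for each of the 4 groups, an intensity trend and Benjamini-Hochberg adjustment over all genes. Fold changes are on that scale, which understates changes of low genes. Late ripening was the mean of both treatments, and season differences came from separate fits over 16899 genes. The p values measure the spread between 3 replicates; 3 against 3 libraries alone cannot go below an exact p of 0.1. RPKM are not counts, so the count-based limma-voom on recovered reads was an alternative only, beside other pseudocounts (0.1, 1), filters, scalings, blocks and leaving out each library. Scripts were tested on simulated data. Python 3.11.15 (numpy 2.4.6, pandas 2.3.3, matplotlib 3.10.9) gave correlations and figures.

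Named genes were the 5 genes, the most abundant gene of each role by mean RPKM over 24 libraries, those called in late ripening of either season or under nitrogen in 2014, the 5 described and 2 of all genes most alike, and NIR1. None of the 26740 gene IDs matched the RefSeq table at hand (0 IDs), so positions and sequences are not given here.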

Additional observations from a re-analysis of the deposited data

Results flagged for a closer look

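The change of PSAF from (v+28) to (v+35) differed between the seasons by a test of the difference itself, by -0.62 on the log2 scale (2014 minus 2013, limma adjusted p = 0.0335), with 0.07 in 2013 and -0.55 in 2014. The call was lost under 13 of 34 alternative settings, in 12 of which 1 library was left out. Within each treatment of 2014 the later libraries were lower than the earlier ones without overlap, as for 14.4% of all genes in control and 17.1% in soil N100 berries. Taken over both treatments, the stages of 2014 overlapped. In 2013 the stages overlapped within both treatments. Clone and rootstock changed with the season and cannot be told apart from it.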

How the results depend on the processing

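The decline of PORA over both treatments kept its direction and call under every alternative, from -1.05 to -0.83 in 2013 and from -0.96 to -0.82 in 2014 (limma adjusted p of 0.000138 to 0.000942 and 0.000794 to 0.00402). Each value and each count of called genes was labelled under each alternative. Of these, 1645 were the same, 87 weaker, 20 stronger, 22 turned in sign and 2 moved. A tested value was the same when it kept its sign and its side of the call thresholds. A count was the same within a set factor, and an untested value when it moved by less than an SD. A lost call can enter these totals both as a value and as a count. With no threshold on the fold, 7432 genes in 2013 (1505 with it), 4359 in 2014 (580) and 5345 for the season difference (1335) were called, and in 2014 2 of the 5 genes.

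In control berries of 2014, 1 of the 5 genes instead of 2 was called with a pseudocount of 0.1, median ratios and the replicate block, and in soil N100 berries 0 instead of 1 with the replicate block. Without a filter on low values the season difference was called for 0 of the 5 genes. Of all genes, 3 instead of 0 were called under nitrogen at (v+28) of 2014 with a pseudocount of 0.1, a minimum mean of 2 RPKM, median ratios and quantile normalization, and 1 with the replicate block. At (v+35) 0 instead of 1 were called with a pseudocount of 1, no filter and limma-voom, and over both stages 3 instead of 7 with no filter. The nitrogen value of PSBO2 at (v+28) of 2014 was 0.019 with median ratios and 0.0066 with quantile normalization instead of -0.03, and the season difference of PORA was -0.0032 with quantile normalization. Without replicate 3 of both soil N100 groups of 2013, chosen after seeing the data, ripening gave -0.01 for PSAF. The causes of these changes were not tested.

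When each library was left out in turn, late ripening ranged in 2013 from -0.085 to 0.22 for PSAF, -0.022 to 0.16 for PSBO2 and -0.0055 to 0.37 for PSBQ-2. In 2014 it called 1 to 2 of the 5 genes, 0 to 2 in control berries and 0 to 1 in soil N100 berries, where PSBQ-2 ranged from -0.20 to 0.037. Under nitrogen at (v+28) of 2014 the range was -0.14 to 0.15 for PSAF, -0.010 to 0.25 for PSAD-2, -0.16 to 0.075 for PSBO2 and -0.060 to 0.16 for PORA. Calls over all genes ranged from 0 to 2 at (v+28), 0 to 2 at (v+35), 3 to 13 over both stages and 0 to 1 for the difference of the stages, where PORA ranged from -0.0047 to 0.27. The season difference called 0 to 1 of the 5 genes and ranged from -0.24 to 0.10 for PSAD-2 and -0.057 to 0.17 for PORA. The median correlation between the genes ranged from 0.846 to 0.933 in 2013 (lowest without soil N100 replicate 3 of (v+35)) and from 0.746 to 0.895 in 2014 (lowest without control replicate 3 of (v+28)).

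The labels give the same replicate numbers to all groups, and do not say that a number marks a plot. Over all genes, the deviations of libraries with the same number correlated with r from -0.44 to 0.36 in 2013 (median 0.08) and from -0.43 to 0.71 in 2014 (median -0.12), so the numbers were not taken to pair the groups, although the 5 genes had the same highest or lowest number at both stages in several treatments. With the replicate block PSAF in control berries of 2014 had an adjusted p of 0.0866 and PORA in soil N100 berries 0.0660, and the block changed no other call of the 5 genes. Treatment and number together as plots changed no call of the 5 genes. Each value of the 5 genes rested on 249 reads or more.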
